A study of Mus musculus with 7 samples.

Results

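Bambi, Smad6, Smad7, Smad9, Atoh8 and Dkk1 were followed in sorted cells of the mouse neural crest lineage, by embryonic stage, by Tbx1 genotype and by the class of cell. They are 6 of the 32285 gene identifiers counted in each library, chosen by symbol as BMP feedback genes together with Dkk1, and all 6 symbols were found. Single-cell RNA was counted in 7 libraries of EGFP+ DAPI- cells from embryos labelled Swiss-Webster (a mixed background by the methods of the study), each library made from a pool of embryos. All libraries carry Wnt1-Cre/+ and ROSA-EGFPf/+, so that EGFP marks cells that have expressed Wnt1-Cre and their descendants, neural crest and dorsal neural cells alike. The 4 control libraries are 1 at E8.5 (the anterior of the embryo), 1 at E9.5 (pharyngeal apparatus and heart) and 2 at E10.5 (arches 2 to 6 and heart). The 3 libraries titled Tbx1null are 1 at E9.5 (pharyngeal apparatus and heart) and 2 at E10.5 (tissue below arch 1, with heart). Their genotype label reads Wnt1-Cre/+;Tbx1+/-;ROSA-EGFPf/+, whereas the titles and the methods of the study call them null, and they are called null here by their titles. By the methods of the study, Tbx1 is inactivated in the whole embryo and not by the Cre.

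Bone morphogenetic proteins (BMPs) are secreted ligands whose receptors phosphorylate the receptor Smads Smad1, Smad5 and Smad9, which then act with Smad4 on target genes. Several of those targets damp the signal: Bambi is a membrane pseudoreceptor without a kinase domain, and Smad6 and Smad7 are inhibitory Smads that block receptors or the receptor Smads. Atoh8 is a basic helix-loop-helix factor induced by BMP signals in several cell types, and Dkk1 is a secreted antagonist of the Wnt co-receptors Lrp5 and Lrp6 that BMP signals can induce in limb and other mesenchyme. In the pharyngeal arches and the cardiac outflow tract, neural crest mesenchyme receives BMP signals while part of it becomes the smooth muscle of the arch arteries.

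On GRCm38, Smad6 (ENSMUSG00000036867) lies at chr9:63953076-64022059 on the minus strand and Smad9 (ENSMUSG00000027796) at chr3:54755582-54801257 on the plus strand. Atoh8 (ENSMUSG00000037621) lies at chr6:72206177-72235577 and Dkk1 (ENSMUSG00000024868) at chr19:30545863-30549665, both on the minus strand. Promoter windows of 300 bases, from 250 bases before to 50 bases after the start of the gene, were available from RefSeq on GRCm38.p6 for 4 of the 6 genes (Smad6, Smad9, Atoh8 and Dkk1). They were searched on both strands for GGCGCC, a GC-rich element bound by BMP receptor Smads, for GTCTAGAC, the Smad palindrome, for CAGAC, and for the BMP response element, GGCGCC followed after any 5 bases by GTCT, which contains the first motif. The windows that matched GGCGCC or GTCTAGAC, before or across the start, are printed. They were chosen by the motif and not by expression. Each is printed up to or just across the start of the gene. Capitals mark the motif, and both sequences read 5′ to 3′ on the strand of the gene.
Smad6 promoter, chr9:64022056-64022309, minus strand, GTCTAGAC across the start: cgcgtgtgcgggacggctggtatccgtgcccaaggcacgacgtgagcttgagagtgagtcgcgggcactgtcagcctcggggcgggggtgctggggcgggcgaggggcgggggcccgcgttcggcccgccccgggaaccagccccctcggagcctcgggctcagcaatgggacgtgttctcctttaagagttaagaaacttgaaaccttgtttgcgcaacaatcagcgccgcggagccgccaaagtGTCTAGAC
Smad9 promoter, chr3:54755332-54755581, plus strand, GGCGCC from base -51 to base -46: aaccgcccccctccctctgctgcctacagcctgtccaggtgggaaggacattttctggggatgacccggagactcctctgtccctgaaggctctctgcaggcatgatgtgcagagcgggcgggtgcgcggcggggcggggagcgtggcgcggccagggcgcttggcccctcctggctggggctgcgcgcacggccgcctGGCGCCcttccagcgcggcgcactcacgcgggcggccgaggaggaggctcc
The Smad6 palindrome spans bases -4 to 4 around the start and was present in 57 of 27025 mouse promoter windows (0.211%). GGCGCC was present in 3233 windows (12.0%). Dkk1 held only CAGAC, from base 45 to base 49, a motif found in 49.7% of windows. Atoh8 held none of the 4 motifs. The BMP response element was in none of the 4 genes and in 0.0703% of all windows. A match in letters is a description and was not tested for binding.

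Cells were sorted into classes by the UMIs of a few genes. A mesenchymal cell had at least 2 UMIs of Twist1, Prrx1 and Prrx2 together. Within these, in this order, cells with at least 10 UMIs of Acta2 and Tagln formed the Acta2/Tagln class, cells with a Foxf1 UMI the Foxf1 class, cells with a Hoxa3, Hoxb3 or Hoxd3 UMI the Hox 3 class and cells with a Hoxa2 UMI the Hoxa2 class, and the rest formed the no-Hox class. Outside the mesenchyme, Sox10 cells had at least 2 Sox10 UMIs, and neural cells had no Sox10 and at least 2 UMIs of Sox1, Sox2, Sox3, Elavl3 and Elavl4 together. The 16 genes used for the gates were left out of all tests. The Acta2/Tagln class held 63 to 178 cells per library at E9.5 and E10.5, the Foxf1 class 259 to 775, the Hox 3 class 1005 to 1690, the Hoxa2 class 195 to 2391 and the no-Hox class 113 to 4375. At E8.5 the Acta2/Tagln and Foxf1 classes held 7 cells each and gave no value. Levels below are CPM, the UMIs of the gene scaled by all UMIs of the class in that library, counted at the 3′ end of transcripts.

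The markers bore out the names of the classes in part. The smooth muscle genes Cnn1, Myl9, Rgs5, Myh11 and Actg2 summed to 503 to 1252 CPM in the Acta2/Tagln class and to at most 136 CPM in any other mesenchymal class. That class also carried cardiomyocyte RNA (Myh6, Myh7, Tnnt2, Nkx2-5 and Tnni3), with 534 and 1257 CPM in the E9.5 control and null, 563 and 14.2 CPM in the E10.5 controls and 25.2 and 81.1 CPM in the E10.5 nulls. Neural markers (Pax6, Zic1, Dcx, Stmn2 and Hes5) in the Hox 3 class summed to 263 and 61.6 CPM in the E10.5 controls and to 264 and 611 CPM in the E10.5 nulls, and null replicate 2 was highest in every mesenchymal class at E10.5. Blood markers there were 6.0 to 10.6 CPM in null replicate 2 and at most 2.7 CPM in the other E10.5 libraries. Endothelial markers summed to at most 58.2 CPM in the Acta2/Tagln class and 10.6 CPM in the other mesenchymal classes. The levels and tests of the 6 genes in mesenchyme were therefore repeated without cells that had at least 2 UMIs of the neural gate genes or of Myh6, Myh7, Tnnt2 and Tnni3 together, a choice made after seeing the data. The pathway lists, the splits by Acta2, Tagln and Foxf1 UMIs and the correlations below were not repeated in this way. In the Hox 3 class this left out 31.3% and 8.7% of cells in the E10.5 controls and 44.1% and 65.9% in the nulls. At E8.5, 80.7% of mesenchymal cells carried a Sox10 UMI, against 1.0 to 26.1% at later stages.

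The deposited libraries held 140264662 to 234844769 UMIs in 5987 to 12047 barcodes, and 53483 of 65862 barcodes were kept. The median kept cell had 14783 to 22893 UMIs. Pairs of libraries shared 0 to 44 cell barcodes. The E8.5 library was made with kit v2, the E9.5 and E10.5 controls with v3.1, and the nulls with v3 except null replicate 2 at E10.5 with v3.1. Stage and kit at E8.5, and genotype and kit at E9.5, cannot be told apart. Tbx1 UMIs were present in the null libraries, with 5.17 and 3.91 CPM over all cells in the E10.5 controls and 2.97 and 2.68 CPM in the nulls. At E9.5 they were 0.75 and 0.62 CPM in control and null. Where these 3′ tags lie relative to the altered part of the gene is not given in the sources used here, so the counts do not check the label.

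**Figure D1:**
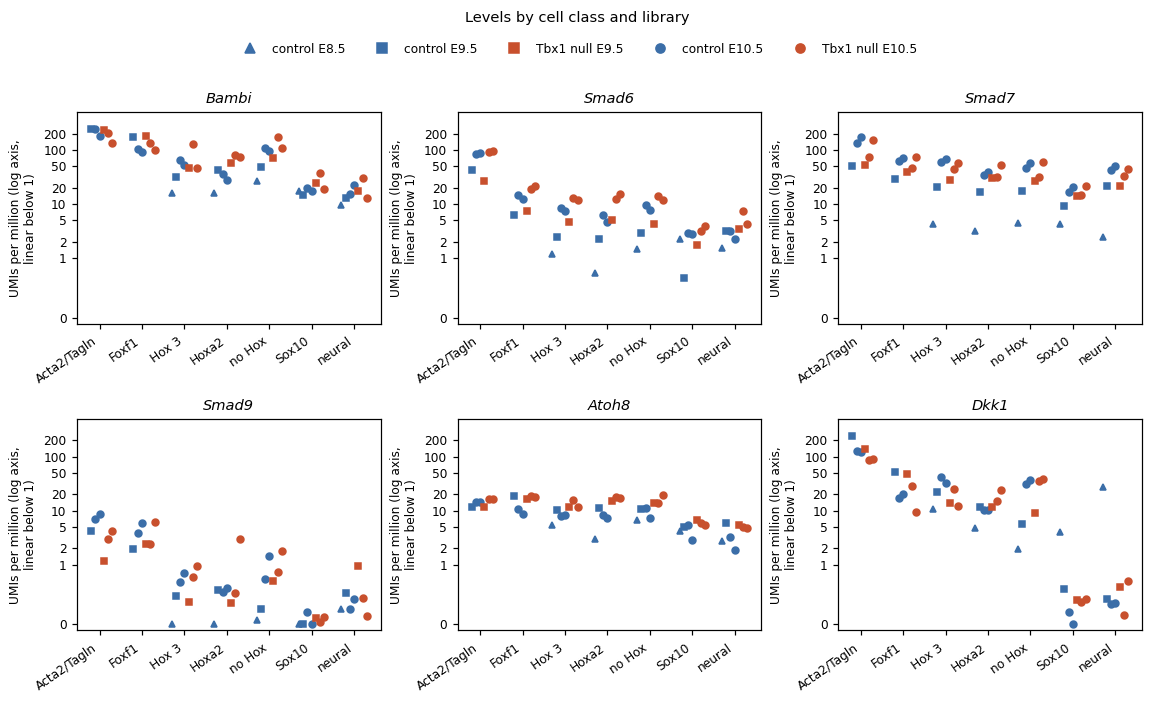
Level of each gene in CPM (log axis, linear below 1) by class of cell, 1 point per library, with blue for control and orange for Tbx1 null libraries, and triangles, squares and circles for E8.5, E9.5 and E10.5. Bambi, Smad6, Smad7 and Dkk1 stand highest in the Acta2/Tagln class, and Dkk1 falls below 1 CPM in Sox10 and neural cells of E9.5 and E10.5.

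Bambi, the pseudoreceptor (ENSMUSG00000024232, GRCm38 chr18:3507923-3516404, plus strand), was highest in the Acta2/Tagln class in all 6 libraries of E9.5 and E10.5, followed by the Foxf1 class at E9.5 and by the no-Hox class at E10.5. Acta2/Tagln cells had 246 CPM in the E9.5 control and 237 CPM in the E9.5 null, and 244 and 186 CPM in the E10.5 controls and 208 and 133 CPM in the E10.5 nulls. Its Foxf1 class levels were 175 CPM in the E9.5 control and 185 CPM in the E9.5 null, and 103 and 92.2 CPM in the E10.5 controls and 135 and 102 CPM in the E10.5 nulls. Hox 3 cells had 32.1 CPM in the E9.5 control and 46.9 CPM in the E9.5 null, and 65.0 and 53.4 CPM in the E10.5 controls and 129.9 and 46.4 CPM in the E10.5 nulls, so that the Foxf1 class was above the Hox 3 class in each of the 6 libraries. In the Hox 3 class at E10.5 both controls lay between null replicate 1, the highest, and null replicate 2. The no-Hox class had 49.3 CPM in the E9.5 control and 71.9 CPM in the E9.5 null, and 111 and 95.05 CPM in the E10.5 controls and 174 and 110.4 CPM in the E10.5 nulls. The Hoxa2 class spanned 28.2 to 81.7 CPM over these 6 libraries. Sox10 cells spanned 14.5 to 37.0 CPM and neural cells 13.1 to 30.3 CPM, below the mesenchyme of the same library in every case. At E8.5, mesenchymal cells had 25.7 CPM, below the 53.6 CPM of the E9.5 control. After each cell was thinned to 5000 UMIs, 49.3 to 65.7% of Acta2/Tagln cells and 3.79 to 7.07% of neural cells carried a Bambi UMI.

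Smad6, an inhibitory Smad that acts mainly on BMP receptor Smads, was set apart by the Acta2/Tagln class. It had 42.0 CPM in the E9.5 control and 26.9 CPM in the E9.5 null there, and 86.2 and 89.6 CPM in the E10.5 controls and 92.7 and 94.3 CPM in the E10.5 nulls. Its Foxf1 class levels were 6.23 CPM in the E9.5 control and 7.53 CPM in the E9.5 null, and 14.6 and 12.5 CPM in the E10.5 controls and 18.8 and 21.4 CPM in the E10.5 nulls. No library of the Foxf1 class reached the lowest Acta2/Tagln library. The Hox 3 class spanned 2.41 to 13.1 CPM, the Hoxa2 class 2.29 to 15.4 CPM and the no-Hox class 2.89 to 14.1 CPM over the E9.5 and E10.5 libraries. In the Hox 3 and no-Hox classes both E9.5 libraries lay below all 4 libraries of E10.5, and in the Hoxa2 class the E9.5 null overlapped them. Mesenchymal cells at E8.5 had 1.39 CPM, the lowest mesenchymal level of the 7 libraries.

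Smad7 (ENSMUSG00000025880, GRCm38 chr18:75367529-75395935, plus strand), the inhibitory Smad shared by BMP and TGF-beta receptors, was present in every class. Acta2/Tagln cells had 49.8 CPM in the E9.5 control and 52.6 CPM in the E9.5 null, and 135 and 178 CPM in the E10.5 controls and 74.6 and 151 CPM in the E10.5 nulls. Its Foxf1 class levels were 29.5 CPM in the E9.5 control and 38.7 CPM in the E9.5 null, and 63.7 and 72.4 CPM in the E10.5 controls and 46.2 and 73.4 CPM in the E10.5 nulls. Hox 3 cells had 20.7 CPM in the E9.5 control and 28.5 CPM in the E9.5 null, and 59.8 and 67.8 CPM in the E10.5 controls and 45.5 and 57.0 CPM in the E10.5 nulls. Null replicate 1 was the lowest E10.5 library in all 3 of these classes. Neural cells had 21.4 CPM in the E9.5 control and 22.0 CPM in the E9.5 null, and 42.1 and 50.1 CPM in the E10.5 controls and 32.4 and 43.8 CPM in the E10.5 nulls, below the Hox 3 class of the same library except in the E9.5 control. Sox10 cells were lower, at 9.10 to 21.6 CPM. Over all mesenchymal cells of the controls it was 4.34 CPM at E8.5, 19.02 CPM at E9.5 and 52.4 and 57.9 CPM at E10.5, and each later stage lay above the earlier one.

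Smad9, a BMP receptor Smad, had its highest levels in the Foxf1 and Acta2/Tagln classes, although larger classes held more of its UMIs in some libraries, such as the no-Hox class of the E9.5 null with 69 of 120 mesenchymal UMIs. Foxf1 cells had 1.94 CPM in the E9.5 control and 2.38 CPM in the E9.5 null, and 3.78 and 5.76 CPM in the E10.5 controls and 2.42 and 6.18 CPM in the E10.5 nulls, on 14 to 74 UMIs per library. Its Acta2/Tagln levels were 4.20 CPM in the E9.5 control and 1.14 CPM in the E9.5 null, and 7.04 and 8.70 CPM in the E10.5 controls and 3.02 and 4.12 CPM in the E10.5 nulls, on 2 to 30 UMIs. The Hox 3 class spanned 0.375 to 0.981 CPM, on 11 to 35 UMIs, below the Foxf1 class of the same library in all 6 libraries. Sox10 cells held 0 to 2 UMIs per library and neural cells 0.150 to 0.977 CPM. At E8.5 the Hox 3, Hoxa2 and Sox10 cells held no Smad9 UMI, where 3 UMIs would be 1.17, 0.454 and 0.363 CPM.

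Atoh8, the transcription factor among the 6, spanned 7.25 to 19.6 CPM over the 5 mesenchymal classes of E9.5 and E10.5. It had 11.1 CPM in the E9.5 control and 13.6 CPM in the E9.5 null over all mesenchymal cells, and 9.15 and 7.92 CPM in the E10.5 controls and 16.4 and 13.4 CPM in the E10.5 nulls. Foxf1 cells had 18.3 CPM in the E9.5 control and 16.2 CPM in the E9.5 null, and 10.7 and 8.79 CPM in the E10.5 controls and 18.6 and 17.7 CPM in the E10.5 nulls. Its Acta2/Tagln levels were 11.4 CPM in the E9.5 control and 11.4 CPM in the E9.5 null, and 14.4 and 14.2 CPM in the E10.5 controls and 16.1 and 16.0 CPM in the E10.5 nulls. At E10.5 both nulls were above both controls in each of these 3 groups of cells, whereas at E9.5 the null was above the control over all mesenchymal cells, below it in the Foxf1 class and level with it in the Acta2/Tagln class. Sox10 cells spanned 2.89 to 6.65 CPM and neural cells 1.83 to 5.77 CPM. At E8.5 mesenchymal cells had 6.31 CPM, below the later libraries.

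Dkk1, the Wnt antagonist, ranged over these classes from 0 to 238 CPM. Its Acta2/Tagln levels were 238 CPM in the E9.5 control and 141 CPM in the E9.5 null, and 129 and 119 CPM in the E10.5 controls and 87.7 and 90.2 CPM in the E10.5 nulls. Foxf1 cells had 51.9 CPM in the E9.5 control and 46.5 CPM in the E9.5 null, and 17.2 and 20.5 CPM in the E10.5 controls and 28.5 and 9.39 CPM in the E10.5 nulls. Its Hox 3 class levels were 22.0 CPM in the E9.5 control and 14.0 CPM in the E9.5 null, and 42.3 and 32.4 CPM in the E10.5 controls and 25.4 and 12.2 CPM in the E10.5 nulls. The Acta2/Tagln class was above the other classes in all 6 libraries, while the order of the Foxf1 and Hox 3 classes turned with stage, since Foxf1 was higher in both libraries at E9.5 and lower in 3 of 4 at E10.5. The no-Hox class had 5.70 CPM in the E9.5 control and 8.85 CPM in the E9.5 null, and 30.8 and 36.3 CPM in the E10.5 controls and 35.2 and 39.2 CPM in the E10.5 nulls. All no-Hox libraries at E10.5 were above both at E9.5, and the first arch was dissected at E9.5 but not at E10.5, so that stage cannot be told apart from the tissue taken. The class is set by the absence of Hox UMIs, and its cells were shallower at E10.5. Their median was 24098 and 21796 UMIs at E9.5 and 13938 to 19650.5 UMIs at E10.5. Whether the class holds like cells at both stages was not tested. Sox10 cells held 8 and 4 UMIs in the E9.5 control and null and 1, 0, 11 and 7 in the E10.5 controls and nulls, or 0 to 0.592 CPM. In the library with 0, 3 UMIs would be 0.31 CPM. Neural cells spanned 0.160 to 0.729 CPM at these stages. After thinning, 26.7 to 49.2% of Acta2/Tagln cells and 0.0580 to 0.427% of neural cells had a Dkk1 UMI, with medians of 18955 to 28102 and 9041.5 to 15945 UMIs per cell before thinning.

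Contrasts between classes were tested over the 6 libraries of E9.5 and E10.5, with the library as a block, by edgeR's quasi-likelihood test on summed UMIs and Benjamini-Hochberg adjustment over 14399 genes. Of 36 tests of the 6 genes, 20 passed an adjusted p of 0.05, 7 higher and 13 lower, and 25 had an unadjusted p under 0.05. Of the 14399 genes, 4646, 7036, 2560, 699, 7535 and 9900 had an unadjusted p under 0.05, by contrast in the order given below. These p-values measure how far class sums scatter after differences between libraries are taken up by the block. The sums of a library were treated as separate units, with both stages and genotypes pooled. Bambi, Smad6, Smad7 and Dkk1 are named by the study from these libraries, so their place among the classes is not independent of it.

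In the Foxf1 class against the Hox 3 class, Bambi, Smad6, Smad9 and Atoh8 were higher, 4 of the 6 genes, where 9.08% of all genes were higher and 20.9% were called. Smad9 differed most, by a log2 fold change of 2.37 ± 0.38 (SE, edgeR adjusted p = 1.76e-05). Bambi was higher by 1.24 ± 0.23 (edgeR adjusted p = 0.000146), and by 0.65 (adjusted p = 0.033) in the E10.5 libraries alone, and Smad6 by 0.83 ± 0.19 (edgeR adjusted p = 0.00173). Atoh8 was higher by 0.48 ± 0.14 (edgeR adjusted p = 0.0126), which became 0.19 ± 0.13 (adjusted p = 0.53) without the cells with neural or cardiomyocyte UMIs. The call of Atoh8 was also lost without the E9.5 control (adjusted p = 0.071), without null replicate 2 at E10.5 (adjusted p = 0.059), in the control libraries alone (adjusted p = 0.39), in the E10.5 libraries alone (adjusted p = 0.12), after thinning (adjusted p = 0.10) and with gates read at 10000 UMIs (0.22, adjusted p = 0.36). That of Smad6 was lost in the control libraries alone (0.93, adjusted p = 0.068). Smad7 had a log2 fold change of 0.27 ± 0.11 (edgeR adjusted p = 0.0733).

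In the Acta2/Tagln class against the Foxf1 class, Smad6, Smad7 and Dkk1 were higher, 3 of the 6 genes, where 18.1% of all genes were higher and 42.1% were called. Smad6 was higher by a log2 fold change of 2.37 ± 0.20 (edgeR adjusted p = 2.56e-11). Dkk1 was higher by 2.07 ± 0.40 (edgeR adjusted p = 8.13e-05) and Smad7 by 0.85 ± 0.11 (edgeR adjusted p = 3.08e-07). Bambi had 0.56 ± 0.23 (edgeR adjusted p = 0.0533), just outside the threshold, and 0.62 ± 0.23 (adjusted p = 0.030) without the cells with neural or cardiomyocyte UMIs. The calls of Smad6, Smad7 and Dkk1 also held without those cells, with 2.45 ± 0.21, 0.91 ± 0.12 and 2.18 ± 0.40, although the part of cardiomyocyte RNA in the E9.5 classes was not tested beyond this.

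Among the classes defined by Hox genes, 1 of 12 tests passed. In the Hoxa2 class against the Hox 3 class Smad7 was lower by a log2 fold change of -0.37 ± 0.11 (edgeR adjusted p = 0.033), where 4.69% of all genes were lower and 5.92% were called. That call was lost without the E9.5 control, without either E10.5 control and without either E10.5 null (adjusted p from 0.0557 to 0.298), and it was -0.54 ± 0.12 (adjusted p = 0.0065) without the cells with neural or cardiomyocyte UMIs. Dkk1 had -0.86 ± 0.40 (edgeR adjusted p = 0.244), and -1.37 (adjusted p = 0.033) with gates read at 10000 UMIs. In the no-Hox class against the Hoxa2 class none of the 6 genes was called, where 0.0208% of all genes were and edgeR gave an unadjusted p under 0.05 to 699 of 14399 genes and to 2 of the 6, Bambi and Dkk1. Bambi had 0.95 ± 0.23 (edgeR adjusted p = 0.158) there, and 1.21 (adjusted p = 0.017) in the E10.5 libraries alone. Dkk1 had 0.86 (edgeR adjusted p = 1.00) there, and 1.33 (adjusted p = 0.090) in the E10.5 libraries alone.

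Outside the mesenchyme all 6 genes were lower. In Sox10 cells against the mean of the 5 mesenchymal classes, 22.7% of all genes were lower and 46.4% were called. Dkk1 was lower by a log2 fold change of -6.31 ± 0.60 (edgeR adjusted p = 1.16e-10), on 0 to 11 UMIs per library of Sox10 cells. Smad9 was lower by -4.43 ± 0.58, Smad6 by -2.41 ± 0.20, Bambi by -2.13 ± 0.22, Smad7 by -1.58 ± 0.10 and Atoh8 by -1.30 ± 0.13, with edgeR adjusted p of at most 9.19e-08. Smad9 was lower by -5.09 in the control libraries alone and by -6.001 after thinning, both called. In neural cells against the same mean, 32.5% of all genes were lower and 66% were called. Dkk1 was lower by -6.15 ± 0.51 (edgeR adjusted p = 9.18e-13) and Smad7 by -0.54 ± 0.09 (edgeR adjusted p = 1.41e-06), the smallest of the 6 differences. All 12 of these calls held without the mesenchymal cells with neural or cardiomyocyte UMIs.

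**Figure D2:**
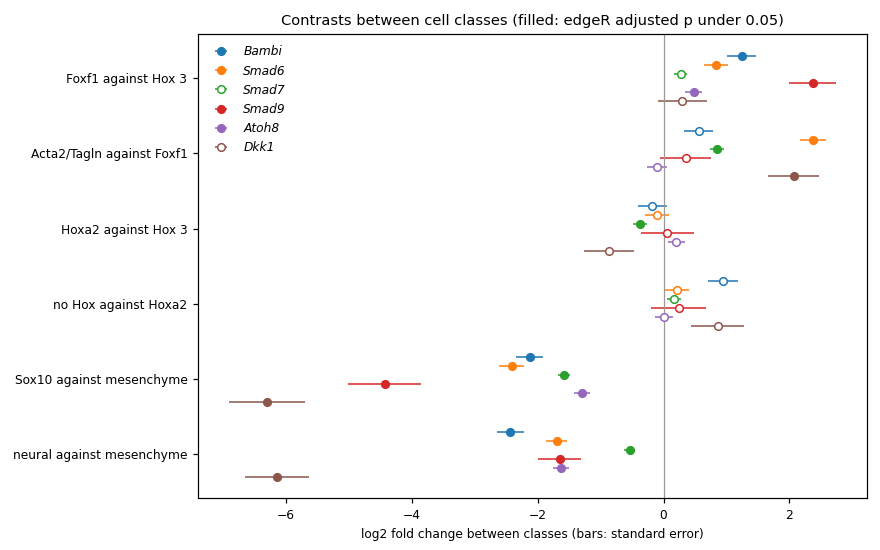
Log2 fold change of each gene between classes (horizontal axis, points with standard error bars, filled where the edgeR adjusted p is under 0.05) in 6 contrasts over the E9.5 and E10.5 libraries. Smad6 at 2.37 and Dkk1 at 2.07 lead the contrast of Acta2/Tagln with Foxf1 cells, Smad9 at 2.37 leads that of Foxf1 with Hox 3 cells, and all 6 genes lie below 0 in Sox10 and neural cells.

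The genes were also read along the UMIs of Acta2 and Tagln in mesenchymal cells, a split chosen after seeing the data and given as values. From cells with none to cells with 20 or more, Smad6 went from 8.12 and 6.48 CPM to 99.5 and 98.1 CPM in the E10.5 controls, and from 13.6 and 12.7 CPM to 113 and 108 CPM in the E10.5 nulls. At E9.5 it reached 49.7 CPM in the control and 31.1 CPM in the null, below all libraries of E10.5. For Dkk1, the step between none and 3 to 9 UMIs differed by library. It went from 23.6 and 21.1 to 86.6 and 73.7 CPM in the E10.5 controls and from 23.2 and 14.0 to 28.8 and 24.2 CPM in the E10.5 nulls, in bins of 53 to 99 cells. In both E9.5 libraries it was 49.6 CPM in the control and 53.3 CPM in the null. With 20 or more UMIs, Dkk1 was 143 and 123 CPM in the E10.5 controls and 109 and 106 CPM in the nulls. These are values without a test. Bambi was also higher at the upper end in every library, from 61.8 to 255 CPM in E10.5 control replicate 1 for example. Along Foxf1 UMIs, Dkk1 was higher with Foxf1 than without it at E9.5. In the control it was 10.6, 40.6, 71.3 and 59.1 CPM at 0, 1, 2 and 3 or more Foxf1 UMIs. In the null it was 10.3 CPM without Foxf1 and 64.5 CPM with 3 or more. At E10.5 it was lower at the upper end in the controls, from 26.5 and 23.2 to 10.5 and 10.8 CPM. The E10.5 nulls had no steady order, with 23.5, 39.8, 27.5 and 21.4 CPM in replicate 1 and 14.8, 12.7, 22.3 and 5.13 CPM in replicate 2 at 0, 1, 2 and 3 or more Foxf1 UMIs.

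**Figure D3:**
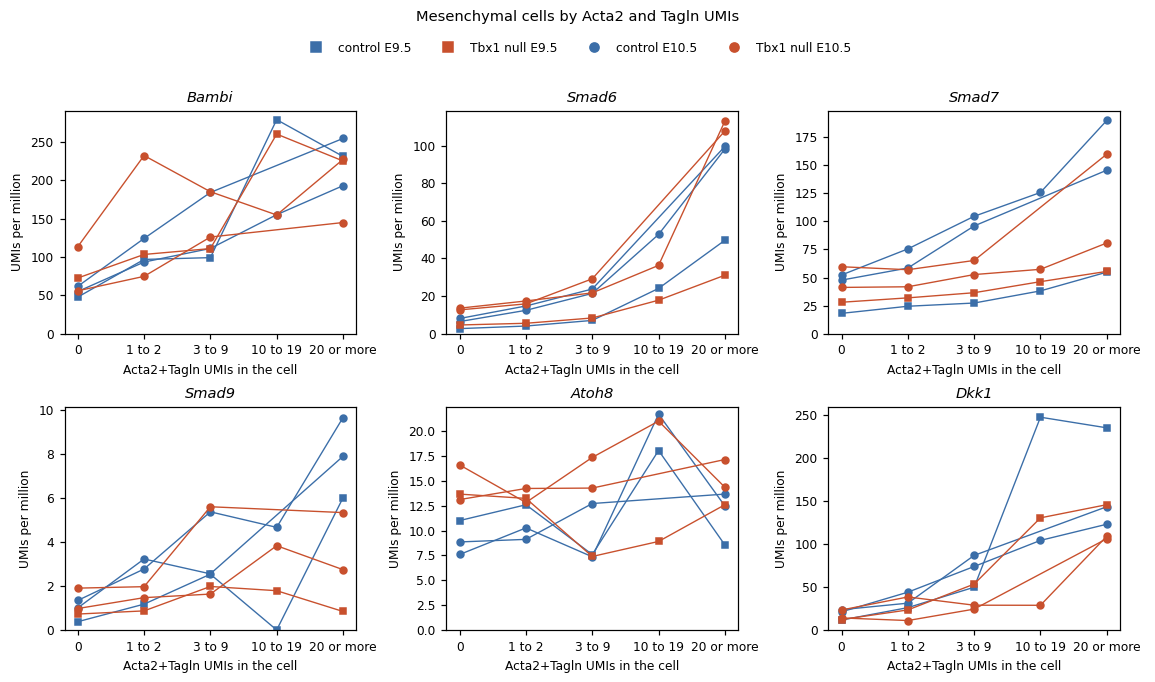
Level of each gene in CPM (linear axis from 0) in mesenchymal cells grouped by their UMIs of Acta2 and Tagln together, 1 line per library, with squares for E9.5, circles for E10.5, blue for control and orange for null. Smad6 and Dkk1 are higher in every library in the cells with 20 or more than in those with none, and Atoh8 shows no steady change.

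The Tbx1 genotype was compared at E10.5, with 2 libraries on each side, to ask whether loss of Tbx1 in the whole embryo moves these genes in neural crest cells. The study names Bambi and Dkk1 as raised in null clusters at E9.5 and E10.5, and Smad7 at E9.5, from these libraries. Their direction is therefore not independent of it. The study compared cells within clusters, whereas gated classes are summed per library here, so the measures are unlike. Dkk1 here was lower in the null Hox 3 class at both stages, uncalled at E10.5 and untested at E9.5. It was higher in the null Hoxa2 class at E10.5, also uncalled, and in the null no-Hox class at E9.5. None of the 6 genes was called by edgeR in any of the 7 classes or over all mesenchymal cells. Over the 7 classes 40 tests were possible, 11 of which had an unadjusted edgeR p under 0.05. Of all genes, 1158 of 10490 had one in the Acta2/Tagln class, 1402 of 12549 in Foxf1, 1816 of 14451 in Hox 3 and 1956 of 13298 in Hoxa2. In the no-Hox class 2205 of 12276 did, in Sox10 cells 1205 of 12665 and in neural cells 663 of 15192. DESeq2 called 2 of the tests, Bambi and Smad6 in the Hoxa2 class. The DESeq2 fit of that class called 1.84% of all genes. Leaving out 1 null library gave calls, given below, in which the lone null library is assumed to vary like the controls. Without null replicate 2 the comparison is of 1 kit v3 null with v3.1 controls. By the supplement of the study, null replicate 1 also had fewer somites than the controls and null replicate 2. Genotype, kit and somite stage cannot be told apart in that comparison. These fits also called more of all genes, and those shares stand beside each. Smad9 and Dkk1 were too low for a test in Sox10 cells. Of all genes, 0.0817% were called over all mesenchymal cells, 0.276% in the Acta2/Tagln class, 0.0558% in the Foxf1 class, 0.0138% in the Hox 3 class, 0.399% in the Hoxa2 class, 0.896% in the no-Hox class, 0.0158% in Sox10 cells and 0 in neural cells, where edgeR gave 663 genes an unadjusted p under 0.05. In simulated libraries with the same spread, edgeR recovered from 5.0% of genes changed 2-fold in the Hox 3 class to 32.0% in the no-Hox class.

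Atoh8 and Smad6 had both nulls above both controls in every class. Over all genes with at least 10 UMIs this held for 35.2% over all mesenchymal cells, 26.6% in the Acta2/Tagln class, 27.2% in Foxf1, 33.7% in Hox 3, 32.3% in Hoxa2, 32.8% in no-Hox, 24.4% in Sox10 and 24.3% in neural cells. The count of 2 of the 6 genes over all mesenchymal cells is thus near that of all genes and says nothing particular about them. Over all mesenchymal cells the log2 fold change of null against control was 0.63 ± 0.25 for Atoh8 (edgeR adjusted p = 0.314) and 0.45 ± 0.22 for Smad6 (edgeR adjusted p = 0.376). Without the cells with neural or cardiomyocyte UMIs these were 0.93 ± 0.23 (adjusted p = 0.23) and 0.76 ± 0.22 (adjusted p = 0.28). Atoh8 in the Foxf1 class had 0.84 ± 0.25 (edgeR adjusted p = 0.282), and 0.91 (adjusted p = 0.021) without null replicate 2, a fit that called 10.2% of all genes. For Smad6 in the Acta2/Tagln class the order rests on scaling by total UMIs, and the groups overlapped with TMM scaling.

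With all 4 libraries, the Hoxa2 class held the largest differences among the classes for Bambi, Smad6 and Atoh8. Bambi had 35.5 and 28.2 CPM in the E10.5 controls and 81.7 and 73.5 CPM in the E10.5 nulls, without overlap, and a log2 fold change of 1.13 ± 0.24 (edgeR adjusted p = 0.0866). Smad6 had 6.22 and 4.61 CPM in the E10.5 controls and 12.5 and 15.4 CPM in the E10.5 nulls, and 1.19 ± 0.27 (edgeR adjusted p = 0.102). Atoh8 had 8.12 and 7.25 CPM in the E10.5 controls and 17.9 and 16.8 CPM in the E10.5 nulls, and 1.02 ± 0.23 (edgeR adjusted p = 0.106). Both nulls were higher for Dkk1 too, which had 10.1 and 10.2 CPM in the E10.5 controls and 15.0 and 24.1 CPM in the E10.5 nulls, with 0.75 ± 0.26 (edgeR adjusted p = 0.237). Bambi, Smad6 and Atoh8 passed with either null replicate left out, in fits that called 7.35% of all genes without null replicate 1 and 8.58% without null replicate 2. None of the 3 passed with either control left out (adjusted p from 0.108 to 0.719). Bambi had 1.01 (adjusted p = 0.016) without null replicate 1 and 1.27 (adjusted p = 0.0013) without null replicate 2. Smad6 had 1.32 (adjusted p = 0.015) and 1.11 (adjusted p = 0.013), and Atoh8 0.93 (adjusted p = 0.048) and 1.12 (adjusted p = 0.0069), in the same order. Without null replicate 1, Dkk1 at 1.06 (adjusted p = 0.020) and Smad9 at 2.17 (adjusted p = 0.044) passed as well. Smad9 had 1.10 ± 0.76 (edgeR adjusted p = 0.54) with all 4 libraries and turned to -0.22 without null replicate 2, and Dkk1 ranged from 0.48 to 1.06 with 1 library left out. Both nulls lay above both controls for 32.3% of all genes in this class. The null Hoxa2 classes were small, with 647 and 195 cells against 1035 and 2391, and null replicate 2 carried 170 CPM of neural markers there against 6.0 to 66.9 CPM in the other E10.5 libraries. Without cells with neural or cardiomyocyte UMIs the 4 differences were 1.04 ± 0.24, 1.21 ± 0.27, 1.17 ± 0.23 and 1.05 ± 0.29 in the order above.

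Dkk1 went the other way in the Hox 3 class, where both nulls were below both controls. The log2 fold change was -1.13 ± 0.39 (edgeR adjusted p = 0.346), and both nulls lay below both controls for 13.3% of all genes there. Leaving out null replicate 1 gave -1.79 (adjusted p = 0.020), in a fit that called 2.04% of all genes. With 1 library left out, the difference of Dkk1 there ranged from -1.79 to -0.66. Without cells with neural or cardiomyocyte UMIs, Dkk1 in the Hox 3 class was 56.9 and 34.8 CPM in the E10.5 controls and 41.5 and 28.1 CPM in the E10.5 nulls, the groups overlapped, and the difference was -0.51 ± 0.32 (adjusted p = 0.55). Smad7, also lower in both null Hox 3 classes, had -0.50 ± 0.22 (edgeR adjusted p = 0.404), and without those cells it had 62.8 and 69.3 CPM in the E10.5 controls and 55.7 and 86.7 CPM in the E10.5 nulls and overlapped. Over all mesenchymal cells Dkk1 went from -0.51 ± 0.29 (edgeR adjusted p = 0.44) to 0.02 without those cells. In the Acta2/Tagln class Dkk1 was lower in both nulls (log2 fold change -0.56 ± 0.22, edgeR adjusted p = 0.377), and so was Smad9, on 20 and 30 UMIs against 6 and 9 (-1.21 ± 0.48, edgeR adjusted p = 0.381). For all genes in that class 14.9% were lower in both nulls. Dkk1 remained lower in the Acta2/Tagln class without cells with neural or cardiomyocyte UMIs, at 139.7 and 118 CPM in the E10.5 controls and 98.2 and 103 CPM in the E10.5 nulls. In the Foxf1 class Dkk1 had -0.02 ± 0.43 (edgeR adjusted p = 0.99) with all 4 libraries, -1.11 (adjusted p = 0.013) without null replicate 1, in a fit that called 5.22% of all genes, and 0.57 without null replicate 2, not called, so that its direction rests on which null library is used.

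Another 3 values passed only without null replicate 2, where genotype and kit cannot be told apart, and each rests on which null library is used. Smad7 in the Acta2/Tagln class had -0.55 ± 0.30 (edgeR adjusted p = 0.52) with all 4 libraries, from -1.18 to -0.13 with 1 left out, and -1.18 (adjusted p = 0.0011) without null replicate 2, where 5.07% of all genes were called. Smad7 in the no-Hox class had -0.31 ± 0.30 (edgeR adjusted p = 0.61) with all 4, 0.11 without null replicate 1 and -0.85 (adjusted p = 0.046) without null replicate 2, where 7.57% were called. Bambi in Sox10 cells had 0.57 ± 0.31 (edgeR adjusted p = 0.57) with all 4, from 0.0066 to 0.96 with 1 left out, and 0.96 (adjusted p = 0.016) without null replicate 2, where 5.27% were called.

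**Figure D4:**
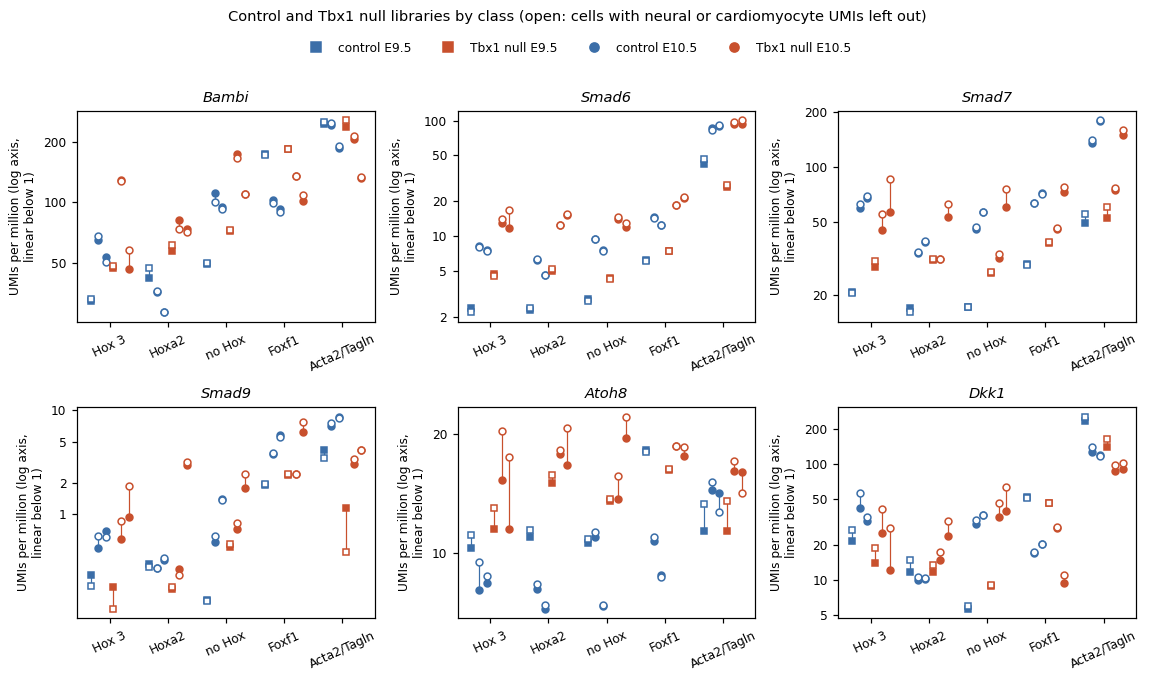
Level of each gene in CPM (log axis, linear below 1) in the 5 mesenchymal classes, with squares for E9.5 and circles for E10.5, blue for control and orange for null, and with filled points for all cells and open points without cells with neural or cardiomyocyte UMIs. Bambi, Smad6 and Atoh8 stand higher in both null libraries of the E10.5 Hoxa2 class, and the open points of Dkk1 in the Hox 3 class overlap between genotypes.

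The difference of the genotype effect between classes was tested as an interaction. None of 18 tests was called by edgeR (5 had an unadjusted p under 0.05), where 0%, 0.0916% and 0.445% of all genes were called for the Foxf1, Hoxa2 and Sox10 classes against the Hox 3 class. Of 15286 genes, 1130, 923 and 1876 had an unadjusted p under 0.05, in the same order. For Dkk1 the effect in the Hoxa2 class exceeded that in the Hox 3 class by a log2 of 1.85 ± 0.53 (edgeR adjusted p = 0.30). It was 2.82 (adjusted p = 0.0045) without null replicate 1, where 0.192% of all genes were called, and 1.40 ± 0.49 (adjusted p = 0.89) without cells with neural or cardiomyocyte UMIs. Bambi had 0.81 ± 0.32 (edgeR adjusted p = 0.672) for the same difference, and from 0.23 to 1.51 with 1 library left out. No test by another tool was run for it.

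At E9.5 there is 1 library of each genotype, made with different kits, so values are given without a test and intervals cover counting error only. Over all mesenchymal cells 5 of the 6 genes were higher in the null library, with folds of 1.37 for Bambi, 1.43 for Smad6, 1.44 for Smad7 and Smad9 and 1.17 for Atoh8, and Dkk1 was 0.89-fold. None passed 1.5-fold, which 14.6% of all genes did. In the Hox 3 class Smad6 was 1.83-fold higher, on 71 and 138 UMIs, and Dkk1 was 0.60-fold (log2 -0.74, interval -0.92 to -0.56), where 15.5% of all genes passed 1.5-fold. In the Hoxa2 class Smad6 was 2.10-fold and Smad7 1.75-fold higher, where 14.7% passed. In the Acta2/Tagln class Dkk1 was 0.58-fold (log2 -0.78, interval -1.02 to -0.55) and Smad6 0.63-fold, where 22.1% passed and the class carried 534 and 1257 CPM of cardiomyocyte markers. In the no-Hox class Dkk1 had a log2 ratio of 0.59 and Smad9 one of 1.40, on 19 and 69 UMIs for Smad9, where 14.3% passed. Smad9 ran the other way in the Acta2/Tagln class at 0.31-fold (7 and 2 UMIs), in the Hoxa2 class at 0.61-fold (12 and 7 UMIs) and in the Hox 3 class at 0.75-fold (14 and 11 UMIs), with intervals that all span no change. Without cells with neural or cardiomyocyte UMIs, Dkk1 in the Acta2/Tagln class was 258 CPM in the control and 167 CPM in the null, and Smad6 was 47.0 and 27.8 CPM. In the Hox 3 class Dkk1 was then 27.1 and 18.9 CPM and Smad6 2.20 and 4.53 CPM, so that these directions held without those cells. The kit cannot be told apart from the genotype in these ratios.

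The rest of the BMP and Wnt pathways was described from fixed lists. In the E10.5 genotype comparison no gene of any list was called over all mesenchymal cells or in the Hox 3 class. The BMP targets (Id1 to Id4, Msx1, Msx2, Hey1, Gata2 and Gata3) had a median log2 fold change of 0.55 over all mesenchymal cells, 0.35 in the Hox 3 class and 1.23 in the Hoxa2 class, where the median of all genes was -0.02, -0.01 and -0.02. It was 0.37 in the Foxf1 class, 0.51 in the no-Hox class, 0.31 in Sox10 cells, 0.07 in neural cells and 0.02 in the Acta2/Tagln class, against 0.00 to 0.02 for all genes. The study names Msx1, Msx2, Id2, Id3 and Gata3 as raised in nulls from these libraries, so these medians are not independent of it. The BMP receptors and Smads had a median of -0.37 and the secreted antagonists one of -0.31 over all mesenchymal cells. The lists were not fitted again without cells with neural or cardiomyocyte UMIs. Such cells made up 4.9% and 2.9% of the no-Hox class in the E10.5 controls and 25.4% and 42.5% in the nulls. The genes named next were chosen after their values were seen. Of the BMP targets, Gata3 passed in the Hoxa2 class at 2.59 ± 0.37 (edgeR adjusted p = 0.036). Among the other lists, Bmpr1b, a type I BMP receptor, was lower in the Hoxa2 class (-1.99 ± 0.24, edgeR adjusted p = 0.020), Grem1, a secreted BMP antagonist, was lower in the Foxf1 class (-3.44 ± 0.40, edgeR adjusted p = 0.028), and Nog, another, was higher in the no-Hox class (2.54 ± 0.43, edgeR adjusted p = 0.042). Between classes, the Foxf1 class against the Hox 3 class had 2 of 9 BMP targets higher and 1 lower, 3 of 7 BMP ligands higher and 3 lower, and 6 of 7 tested Wnt targets lower with none higher (median -1.82, against 0.02 for all genes), where 9.08% of all genes were higher and 11.8% lower. The Wnt target count stands beside the neural RNA of the Hox 3 class given above, whose part was not tested. The Acta2/Tagln class against the Foxf1 class had 5 of 6 TGF-beta targets, 4 of 9 secreted BMP antagonists, 3 of 7 BMP ligands and 3 of 9 BMP targets higher and none lower, and 3 of 11 BMP receptors and Smads higher and 4 lower, where 18.1% of all genes were higher and 24% lower. In Sox10 cells 8 of 9 BMP targets, 7 of 9 secreted antagonists and 4 of 6 TGF-beta targets were lower than in mesenchyme, and 4 of 7 Wnt targets were higher, where 22.7% of all genes were lower and 23.7% higher. In neural cells 3 of 9 BMP targets were higher and 3 lower, and 3 of 9 secreted antagonists were higher and 3 lower, where 33.6% of all genes were higher and 32.5% lower.

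At E8.5 the pattern of Dkk1 was reversed over all neural and mesenchymal cells, since neural cells had 26.8 CPM on 951 UMIs and mesenchymal cells 2.51 CPM. Among cells with Hox UMIs the values showed no such reversal, on few neural UMIs. Without cells with neural or cardiomyocyte UMIs, the Hox 3 class had 11.9 CPM, the Hoxa2 class 5.13 CPM and the no-Hox class 1.06 CPM. Neural cells with a Hox 1 or Hox 2 UMI and no Six3 or Otx2 UMI had 2.15 CPM, on 3 UMIs (95% Poisson interval 0.44 to 6.29). That interval includes the level of the Hoxa2 class. The mesenchymal classes had no such filter on Six3 and Otx2, so the groups are not chosen alike. The Sox10 cells of that library had 3.99 CPM, on 33 UMIs. Among its neural cells, split after the data were seen, 101 cells with a Six3 UMI, a marker of the anterior forebrain, had 153 CPM of Dkk1 (95% Poisson interval 138 to 170). Of these, 40.6% held a Dkk1 UMI, against 4.05% of the cells with a Hox 1 or Hox 2 UMI but no Six3 or Otx2. The 1026 cells with Otx2 but no Six3 had 24.9 CPM. The 74 cells with a Hox 1 or Hox 2 UMI but no Six3 or Otx2 had 2.15 CPM on 3 UMIs, and the other 540 had 5.45 CPM. Their median depths were 22058, 20395.5, 17975 and 17906.5 UMIs. Dkk1 thus stood highest in the Six3 cells, and the other 5 genes had at most 16.3 CPM there. The head was part of the E8.5 dissection and not of the later ones, and stage cannot be told apart from the tissue taken or the kit.

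Across the 42 library and class sums of E9.5 and E10.5, Bambi and Dkk1 varied most alike of the 6 genes (Pearson r of log2(CPM + 1) 0.91), followed by Smad6 and Smad7 (0.85), and Smad7 and Atoh8 least (0.40). The sums share libraries and classes, so these are descriptions. Over 9646 genes, with the 6 and the gate genes left out of the ranking, Unc5b was nearest to Bambi (r = 0.89), Fn1 to Smad6 (0.95), Arid5b to Smad7 (0.95), Rgs5 to Smad9 (0.90), Igfbp4 to Atoh8 (0.91) and Pdgfrb to Dkk1 (0.92). Unc5b also ranked among the 5 genes nearest to Dkk1, at 0.91.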

How the data were processed

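The authors aligned reads to mm10 with Cell Ranger 6.0.1 (GENCODE annotation M21) and deposited raw UMI counts per gene and cell, without normalization, for barcodes called as cells. Per the labels there are 7 libraries, and the library is the replicate. Here cells needed 1000 genes or more and no more than 10% of UMIs from mitochondrial genes, and Scrublet's top scores were removed at 0.8% of barcodes per 1000 (scanpy 1.11.5). UMIs were summed per library and class of at least 20 cells. Tests used edgeR 4.0.16 (TMM, filterByExpr, glmQLFit and glmQLFTest) with Benjamini-Hochberg adjustment over all genes tested, called under 0.05, with the library as a block between classes. At E9.5, log2 ratios used TMM and a pseudocount of 0.5 UMIs. Levels are unscaled CPM. Shares of cells were read after thinning to 5000 UMIs, which leaves out shallower cells.

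DESeq2 1.42.0, its size factors, no filter on low counts, a replicate block, thinning, other gates and filters, and leaving out each library were alternatives. edgeR was tested on simulated data with 200 genes changed 2-fold. The 6 genes, the classes and the lists were chosen with earlier results of these data known. By rule, named genes were the 6, up to 3 called genes per list in all mesenchyme and in the Hox 3 class (between genotypes none was called there, and list genes named in other classes were chosen after their values were seen), and the 5 genes nearest to each of the 6, other members and gate genes left out, over sums of at least 20 cells with a mean of at least 5 CPM. Libraries are separate pools of embryos, and p-values between genotypes within a class measure the spread between them. Those between classes and of the interaction measure the scatter of class sums after differences between libraries are taken out. Intervals cover counting error only.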

Additional observations from a re-analysis of the deposited data

Results flagged for a closer look

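Among values with more than 3 UMIs in each library of E9.5 and E10.5, 5 had an effect of the null genotype that ran opposite ways at E10.5 and at E9.5, with both E10.5 null libraries on one side of the controls and the single E9.5 null library on the other. The share of all genes that meet this rule was not computed. At E10.5 alone, both nulls lay above both controls for 27.2% of all genes in Foxf1, 24.3% in neural and 32.3% in Hoxa2 cells. The same held for 26.6% in the Acta2/Tagln class, and both nulls were lower for 13.3% in Hox 3. The log2 difference between the stages was 1.08 for Atoh8 in the Foxf1 class (0.90 at E10.5 and -0.17 at E9.5) and 1.12 for Atoh8 in neural cells (1.01 and -0.10). It was 0.92 for Dkk1 in the Hoxa2 class (0.91 and -0.01), where the E9.5 levels were alike. For Smad6 in the Acta2/Tagln class it was 0.74 (0.09 and -0.65), on 70 and 47 UMIs at E9.5 and beside 534 and 1257 CPM of cardiomyocyte markers in the E9.5 control and null. For Smad7 in the Hox 3 class it was -0.79 (-0.32 and 0.46), and its E10.5 groups overlapped without cells with neural or cardiomyocyte UMIs. The E10.5 groups of Smad6 in the Acta2/Tagln class overlapped with TMM scaling. The log2 fold change of Smad6 there was 0.004 ± 0.22 (edgeR adjusted p = 0.995), so that its direction at E10.5 rests on the scaling. At E9.5 the counting intervals of the log2 ratio with TMM scaling spanned no change for Atoh8 in the Foxf1 class (-0.57 to 0.07), Atoh8 in neural cells (-0.46 to 0.24) and Dkk1 in the Hoxa2 class (-0.33 to 0.20), and did not for Smad6 in the Acta2/Tagln class (-1.23 to -0.11) or Smad7 in the Hox 3 class (0.22 to 0.52). The difference between the stages was not tested, since E9.5 has 1 library per genotype. Dkk1 in Sox10 cells, on 0 to 11 UMIs per library, was also higher in both E10.5 nulls and lower in the E9.5 null (4 against 8 UMIs) and was left out of this count.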

How the results depend on the processing

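The alternatives kept the direction and the side of the threshold for 450 values of single genes between classes (13 calls lost, 11 gained, 2 directions turned), 433 between genotypes (23 gained, 6 turned) and 92 of the interaction (1 gained, 6 turned). Another 32 gene results lay within 1 standard error of 0 and were left out of this count. The 0 calls between genotypes over 7 classes became 2 with DESeq2, 3 with no filter on low counts, 1 after thinning to 5000 UMIs and 4 with a replicate block, and ranged from 0 to 7 when 1 library was left out, with 7 without either null replicate. Calls over all genes were 203, and 1219, 2942, 413 and 2473 in the same order, 3577 without null replicate 1 (the kit v3.1 libraries alone) and 4913 without null replicate 2. The block calls were Atoh8 in the Foxf1 class and Bambi, Smad6 and Atoh8 in the Hoxa2 class. Nothing in the labels ties E10.5 replicates of the same number, which are separate pools. Same-numbered deviations correlated at 0.0039 (Hox 3) to 0.44 (neural) over the classes, with 0.15 in the Hoxa2 and 0.20 in the Foxf1 class, and 2 pairs cannot show a pairing. Interaction calls ranged from 0 to 1 with 1 library left out, Dkk1 in the Hoxa2 against the Hox 3 class without null replicate 1. Without cells with neural or cardiomyocyte UMIs, calls over all genes went from 1307 higher and 1701 lower to 460 and 467 for the Foxf1 class and from 178 and 675 to 57 and 216 for the Hoxa2 class, both against the Hox 3 class, and from 203 to 124 between genotypes.

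Without those cells the genotype effect over all mesenchyme turned to 0.082 for Smad7 and 0.019 for Dkk1, the log2 fold change of Atoh8 in the Hoxa2 against the Hox 3 class to -0.0078, and the interaction to -0.21 for Smad7 and -0.089 for Atoh8 in the Foxf1 class and -0.071 for Smad7 in Sox10 cells. Atoh8 in the Hoxa2 against the Hox 3 class was -0.014 in the controls alone. With gates read at 10000 UMIs the Foxf1 interaction was -0.056 for Smad7 and -0.13 for Atoh8. With 1 library left out, genotype effects ranged from -1.11 to 0.57 for Dkk1 and -0.58 to 0.0054 for Smad7 in the Foxf1 class, -0.22 to 2.17 for Smad9 in the Hoxa2 class, -0.019 to 0.60 for Bambi and -0.85 to 0.11 for Smad7 in the no-Hox class, and the interaction of Smad9 in the Hoxa2 class from -0.10 to 2.02. The cause was not tested. Smad9 and Dkk1 in Sox10 cells were too shallow for a genotype test.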
